A study of Homo sapiens with 6 samples.

Results

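The 39 genes described here carry glucose into the cell, break it down to pyruvate, decide whether pyruvate becomes lactate or enters the mitochondrion, and run the branch that makes pentose sugars. They were taken by symbol from a list drawn up with earlier results of these data known, and all 39 were among the 26490 gene symbols of the count table. They were read in SW403, an established human colon adenocarcinoma cell line, by RNA-seq of 3 control cultures, labelled WT, and of 3 cultures in which IRS2 was knocked down. All 6 cultures were grown for 24 h in DMEM with 10% fetal bovine serum and received no treatment, so both groups had the same medium. The column names of the control libraries carry NS, which they do not spell out, and those of the knockdown libraries carry KO where the titles say knockdown. The labels do not say how IRS2 was lowered, how many independently made lines there were, or how much glucose the medium held. The replicates are therefore cultures, and p-values measure the spread between these cultures.

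IRS2 encodes insulin receptor substrate 2, an adaptor that passes signals from the insulin and IGF1 receptors to the kinase AKT. Signals through AKT are known to raise glucose uptake and the use of glucose by glycolysis, in part by acting on glucose transporters, hexokinase and the enzymes that make fructose bisphosphates. Many of the genes below are also known targets of hypoxia-inducible factors or of MYC. Many tumour cells send much of their pyruvate to lactate even when oxygen is present, and the kinases of pyruvate dehydrogenase are a main switch at that branch.

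Library totals ran from 11816973 to 12585013 counts in control and from 14329348 to 18114656 in knockdown, without overlap. Levels are given as scaled CPM, which is CPM taken on a library's total over the genes that passed the low-count filter, multiplied by its TMM factor. That factor, a correction for composition, lay between 0.985 and 1.01. IRS2 itself had 408, 437 and 381 counts in control and 186, 210 and 216 in knockdown, a log2 fold change of -1.39 ± 0.07 (SE). Of 10 markers of colon epithelium, KRT8, KRT18, CDX2, EPCAM and VIL1 were expressed, while KRT20, CDH1, CDH17, CEACAM5 and LGALS4 were under 1 scaled CPM in every library. All 4 endothelial markers and 4 of 5 leukocyte markers, PTPRC among them, were also under 1. The 6 fibroblast markers summed to 8.85 to 27.3 scaled CPM in control and 5.86 to 7.41 in knockdown. The highest sum was in control replicate 1. In control replicates 1, 2 and 3, COL1A1 had 193, 72 and 67 counts, COL1A2 86, 11 and 3, and COL3A1 34, 19 and 5. COL1A1 and COL3A1 were lower in knockdown (edgeR's quasi-likelihood test, adjusted p 0.0029 and 0.0136), and PDGFRB did not pass. The part of the fibroblast markers in the results below was not tested. Without control replicate 1, 18 members and 4593 of all genes passed the threshold. Leaving out that library does not remove the difference of COL1A1. It was at 5.70 and 5.60 scaled CPM in control replicates 2 and 3 and at 3.67 to 4.29 in knockdown, while COL1A2 and COL3A1 overlapped.

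All 39 genes passed the low-count filter. Of these, 22 (56.4%) differed between knockdown and control (edgeR's quasi-likelihood test, threshold 0.05 after adjustment), against 38.5% of the 13832 genes tested. Without knockdown replicate 2 the count was 14 members, 9 of them higher, and 4319 of all genes, and at an adjusted p under 0.01 it was 13 members and 3714 of all genes. Expression was higher in knockdown for 15 of the 22 and lower for 7, while 19.3% of all tested genes were higher and 19.2% lower. The split depended on the scaling, with 9 higher and 8 lower by library size alone and 18 higher and 4 lower after correcting for length and GC content. The split of all genes moved the same way, to 2206 higher and 3198 lower by library size alone. After that correction 3731 of all genes were higher and 2215 lower. Without knockdown replicate 1 there were 12 members higher and 4 lower, and 2402 of all genes higher and 2277 lower. The members were also more deeply counted than most genes, with a median of 1773 counts per library against 409.8 over all tested genes, and the part of depth in their share of calls was not tested. The scaled values of the 2 groups did not overlap for 25 of the 39, against 47.6% of all tested genes. The median log2 fold change was 0.07 over the members and -0.0039 over all tested genes. The members' median was 0.041 without control replicate 3, 0.045 without knockdown replicate 3 and 0.042 with library size alone.

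Every change was small. The largest among the genes that passed were a 1.49-fold rise of PDK3 and a fall of PDP2 to 0.803 of its control level. The directions differed within and between steps. Both hexokinases, the main glucose transporter and TXNIP were higher. The 10 genes of lactate and pyruvate fate were split into 3 higher and 4 lower, and only 1 of the 6 pentose phosphate genes passed. Of all tested genes, 19.3% were higher and 19.2% lower. For 12 of the 22 genes the call was the same in all 17 alternative analyses: SLC2A1, TXNIP, HK1, HK2, GPI, ENO2, PDK3 and PGD were higher, and PFKL, PGK1, PDHB and PDP2 were lower. The other 10 calls were lost in at least 2 alternatives each, and they are marked so below.

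**Figure D1:**
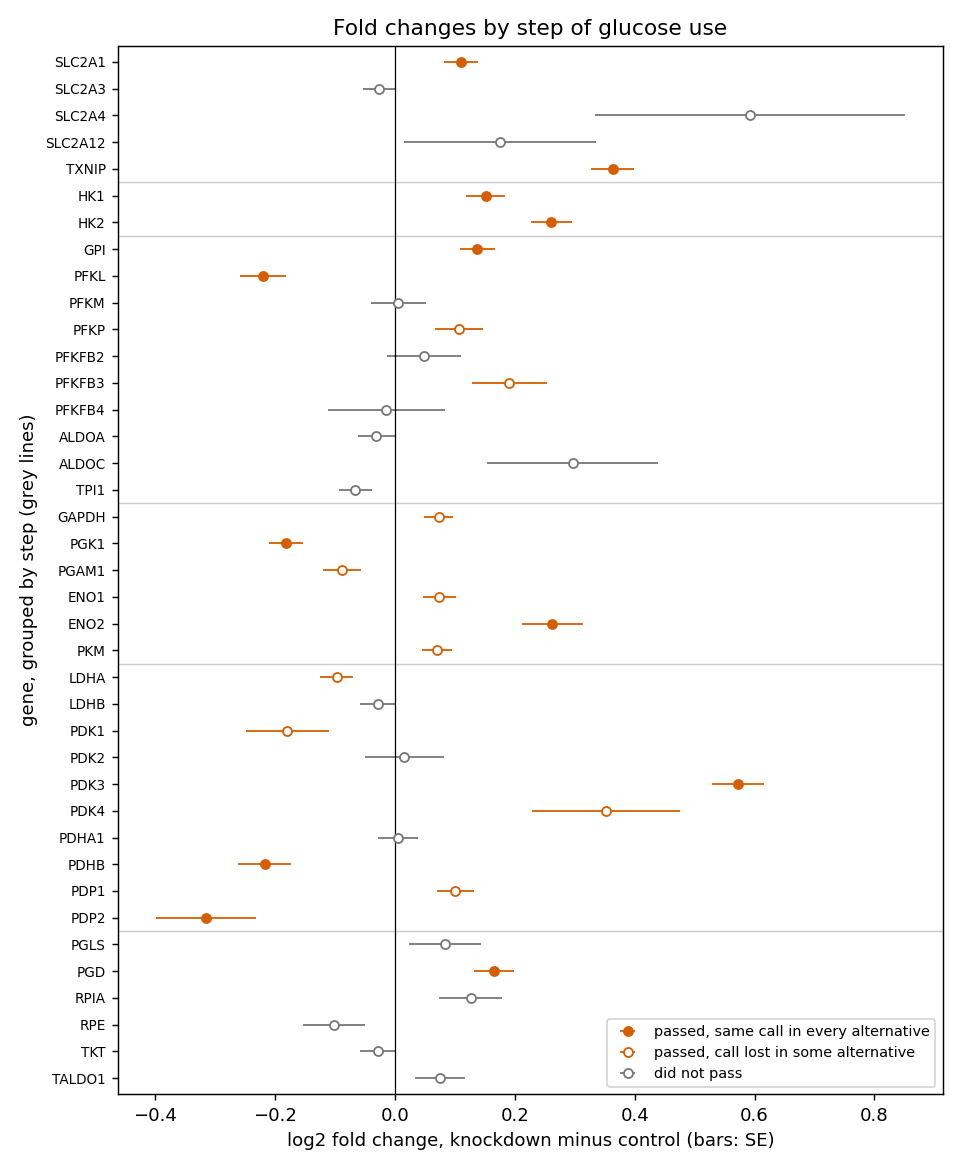
Log2 fold change of each of the 39 genes (x axis, knockdown minus control, bars are SE), with genes on the y axis in pathway order and grey lines between steps. Filled points passed the test and kept the call in every alternative, open orange points passed but lost the call in some alternative, and grey points did not pass. PDK3 at 0.57 is the rightmost filled point and PDP2 at -0.32 the leftmost.

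The sequences upstream of the start sites of 6 genes are shown because these genes had the 3 largest rises (PDK3, TXNIP and ENO2) and the 3 largest falls (PDP2, PFKL and PDHB) among the 12. They are from RefSeq on GRCh38.p14, 150 bases up to the base before the most upstream listed start, 5′ to 3′ along the gene. Capitals mark ACGTG on either strand, a form of the core of the element bound by hypoxia-inducible factors. It overlaps the E-box CACGTG bound by MYC and MondoA. Only exact ACGTG and CACGTG were searched, so other forms of these elements, such as GCGTG, are neither marked nor counted.
PDK3: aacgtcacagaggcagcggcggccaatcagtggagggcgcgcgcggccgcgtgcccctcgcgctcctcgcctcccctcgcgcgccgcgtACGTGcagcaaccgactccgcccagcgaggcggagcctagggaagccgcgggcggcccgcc
TXNIP: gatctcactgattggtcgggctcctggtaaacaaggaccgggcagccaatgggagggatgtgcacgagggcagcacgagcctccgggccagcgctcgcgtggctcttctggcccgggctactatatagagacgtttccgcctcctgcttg
ENO2: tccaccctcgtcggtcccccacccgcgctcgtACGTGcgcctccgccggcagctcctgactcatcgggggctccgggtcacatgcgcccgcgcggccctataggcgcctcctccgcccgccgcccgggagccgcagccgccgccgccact
PDP2: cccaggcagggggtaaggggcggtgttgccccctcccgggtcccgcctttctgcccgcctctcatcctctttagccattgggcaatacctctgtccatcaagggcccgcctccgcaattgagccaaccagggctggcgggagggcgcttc
PFKL: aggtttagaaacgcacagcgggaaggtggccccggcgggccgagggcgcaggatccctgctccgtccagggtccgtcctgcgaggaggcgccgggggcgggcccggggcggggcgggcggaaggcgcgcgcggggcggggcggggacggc
PDHB: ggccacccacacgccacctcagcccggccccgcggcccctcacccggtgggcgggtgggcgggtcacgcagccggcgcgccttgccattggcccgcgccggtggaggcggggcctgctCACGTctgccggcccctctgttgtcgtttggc
The windows are chrX:24465136-24465285 on the plus strand for PDK3, chr1:145996580-145996729 on the minus strand for TXNIP, chr12:6914430-6914579 on the plus strand for ENO2, chr16:66880365-66880514 on the plus strand for PDP2, chr21:44299903-44300052 on the plus strand for PFKL and chr3:58433833-58433982 on the minus strand for PDHB. ACGTG began 61 bases upstream of the start of PDK3, 118 upstream of ENO2 and 32 upstream of PDHB. These exact letters were not in the windows of the other 3 genes, TXNIP among them. That does not show that a window lacks an element, because looser forms were not searched. A window was listed for 35 of the 39 members. ACGTG was in 8 of these 35 (22.9%), namely ALDOC, ENO2, GAPDH, HK2, LDHA, PDHB, PDK3 and PGD. Over the windows of 27305 genes it was in 12.7%. Those genes include ones not expressed or tested here, so they are not a matched background for the members. By direction it was in 5 of 14 higher genes, 2 of 7 lower genes and 1 of 14 that did not pass. The E-box CACGTG was in the windows of GAPDH and LDHA, 5.71% of the members' windows and 4.63% of all.

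At the step of uptake, the gene of the main transporter and the gene of a protein that opposes uptake both rose. They were 2 of 5 genes (40%), near the 38.5% of all tested genes that passed. SLC2A1 encodes GLUT1, the transporter that supplies most cells with glucose. It was at 1061, 1061 and 1024 scaled CPM in control and at 1101, 1146 and 1148 in knockdown. All knockdown libraries lay above all control libraries, by a log2 fold change of 0.11 ± 0.03 (SE; adjusted p 0.00383). TXNIP encodes an arrestin-like protein that promotes removal of GLUT1 from the cell surface and binds thioredoxin, and its transcription is known to follow the glucose phosphate level through MondoA. TXNIP was at 106, 106 and 107 scaled CPM in control and at 137, 135 and 137 in knockdown. The groups were far apart relative to their spread, with SDs of 0.743 and 1.03 (n = 3 each), a log2 fold change of 0.36 ± 0.04 (SE) and an adjusted p of 1.77e-07. The gene is at 145438490 to 145442635 of chromosome 1 (GRCh37), with 9 exons.

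The other 3 transporter genes did not pass. SLC2A3 encodes GLUT3, a high-affinity transporter, and was at 692, 705 and 688 scaled CPM in control and 679, 678 and 691 in knockdown (adjusted p 0.492), with overlapping groups. SLC2A14, a near-identical copy of SLC2A3, had 72 to 99 counts per library, so reads of the pair may have been divided between them. SLC2A4, the insulin-responsive transporter of muscle and fat, was at 1.65, 1.51 and 0.919 scaled CPM in control and 1.97, 2.19 and 2.02 in knockdown, all knockdown values above all control values, with a log2 fold change of 0.59 ± 0.26 (SE) that missed the threshold (adjusted p 0.0784). SLC2A12 was at 3.77 to 4.04 scaled CPM in control and 4.15 to 4.91 in knockdown (adjusted p 0.420), and 51.2% of its exonic bases also lie in exons of TBPL1. Per kb of transcript, control levels were 310 scaled CPM for SLC2A1, 182 for SLC2A3, 0.707 for SLC2A12 and 0.402 for SLC2A4.

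**Figure D2:**
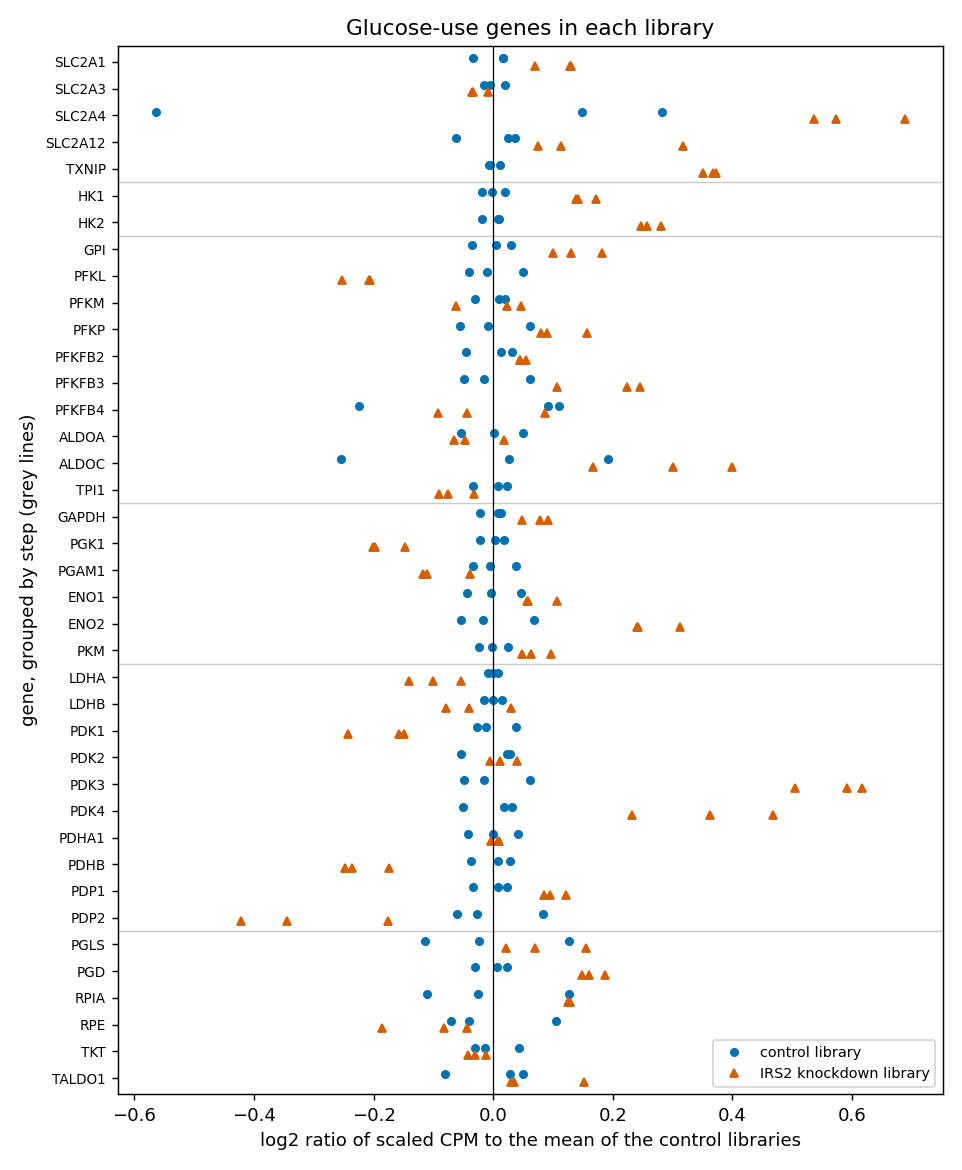
Each gene (y axis, pathway order, grey lines between steps) in each library, as the log2 ratio of its scaled CPM to the mean of the 3 control libraries (x axis), with circles for control and triangles for knockdown. The triangles of TXNIP, HK2 and PDK3 form tight groups to the right of every circle of the same gene, while those of PDHA1 lie among its circles.

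Both hexokinases rose. These enzymes trap glucose in the cell by phosphorylating it; HK1 is the form found in most tissues and HK2 the form that is raised in many tumours and in insulin-sensitive tissue. HK1 was at 164, 169 and 166 scaled CPM in control and at 183, 187 and 183 in knockdown. HK2 was at 144, 144 and 141 in control and at 174, 171 and 170 in knockdown. Neither gene's groups overlapped. The log2 fold change was 0.15 ± 0.03 (SE; adjusted p 0.00116) for HK1 and 0.26 ± 0.03 (SE; adjusted p 5.12e-06) for HK2. HK2 is at 75061254 to 75120486 of chromosome 2 (GRCh37), with 18 exons. HK1 was the more abundant transcript per length, at 46.2 scaled CPM per kb in control against 25.4 for HK2.

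In the upper part of glycolysis, from glucose phosphate to triose phosphates, 3 of 10 genes rose and 1 fell. The share that passed, 40%, was near the 38.5% of all tested genes. GPI, whose enzyme converts glucose phosphate to fructose phosphate, was at 796, 783 and 761 scaled CPM in control and at 854, 836 and 885.5 in knockdown, a log2 fold change of 0.14 ± 0.03 (SE; adjusted p 0.00102). Phosphofructokinase, which commits sugar to glycolysis, is built from liver, muscle and platelet subunits, and these 3 genes differed. PFKL, the liver subunit, was at 135, 126.5 and 129 scaled CPM in control and at 109, 113 and 113 in knockdown. All its knockdown values lay below all control values, by a log2 fold change of -0.22 ± 0.04 (SE; adjusted p 0.00013). PFKM, the muscle subunit, was at 62.8 to 64.9 in control and 61.3 to 66.2 in knockdown, with overlapping groups (adjusted p 0.943).

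PFKP, the platelet subunit, was at 117, 123 and 113 scaled CPM in control and at 131, 124 and 125 in knockdown, a log2 fold change of 0.11 ± 0.04 (SE; adjusted p 0.0401). That call was lost in 10 of 17 alternatives, among them the fits without control replicate 1 or 3 or knockdown replicate 1 or 2 (adjusted p 0.0596 to 0.148). The PFKFB enzymes set the level of the fructose bisphosphate that activates phosphofructokinase. PFKFB3, a form induced in proliferating cells, was at 28.85, 27.3 and 26.7 scaled CPM in control and at 32.8, 29.8 and 32.3 in knockdown, a log2 fold change of 0.19 ± 0.06 (SE; adjusted p 0.0218). Its call was lost in 7 of 17 alternatives, including the fits without control replicate 2 or 3 or knockdown replicate 1 or 3 (adjusted p 0.0572 to 0.0712). PFKFB2, the heart form, and PFKFB4 did not pass, with log2 fold changes of 0.05 ± 0.06 and -0.01 ± 0.10 (SE).

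The aldolases and triose phosphate isomerase did not pass. ALDOA, the aldolase of most tissues, was at 1109 to 1191 scaled CPM in control and 1099 to 1165 in knockdown. ALDOC, the brain form, was at 4.67 to 6.37 and 6.26 to 7.35, with a log2 fold change of 0.30 ± 0.14 (SE; adjusted p 0.110). Per kb, ALDOA was at 701 scaled CPM in control and ALDOC at 3.47. TPI1 was at 1158 to 1205 in control and 1113 to 1159 in knockdown (log2 fold change -0.07 ± 0.03 SE; adjusted p 0.0636). It passed as lower in 6 of 17 alternatives, among them library size alone in place of TMM (adjusted p 0.0044) and the fits without control replicate 3 or knockdown replicate 3 (0.0406 at most).

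In the lower part, from glyceraldehyde phosphate to pyruvate, all 6 genes passed, but in both directions and mostly by little. Of all tested genes, 38.5% passed. PGK1, whose enzyme makes the first ATP of the pathway, was at 670.3, 677 and 658 scaled CPM in control and at 582, 583 and 604 in knockdown. Its groups were well apart, with a log2 fold change of -0.18 ± 0.03 (SE; adjusted p 4.59e-05). PGK1 is at 77166236 to 77384792 of chromosome X (GRCh37), with 11 exons in its canonical transcript. ENO2, the enolase of neurons and neuroendocrine cells, was at 47.96, 45.2 and 44.1 scaled CPM in control and at 56.8, 54.1 and 54.04 in knockdown, a log2 fold change of 0.26 ± 0.05 (SE; adjusted p 0.000376). ENO2 was a minor form, at 19.95 scaled CPM per kb in control against 1306 for ENO1.

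The other 4 genes of the lower part changed by less. GAPDH, which is widely used as a reference gene, was at 3974, 3984 and 3893 scaled CPM in control and at 4083, 4172 and 4209 in knockdown, without overlap (log2 fold change 0.07 ± 0.02 SE; adjusted p 0.0197). PGAM1, a mutase, was at 511, 527 and 501 in control and at 475, 473 and 499 in knockdown (log2 fold change -0.09 ± 0.03 SE; adjusted p 0.0313). ENO1 and PKM had log2 fold changes of 0.07 ± 0.03 each (SE; adjusted p 0.0388 and 0.0343). PKM encodes pyruvate kinase as a pair of spliced forms, which counts per gene do not tell apart.

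Each of these 4 small calls depended on the analysis. With library size alone in place of TMM, GAPDH, ENO1 and PKM kept their direction but had adjusted p values of 0.107, 0.178 and 0.176. GAPDH also lost its call without knockdown replicate 2 (adjusted p 0.0914). ENO1 and PKM lost theirs without control replicate 2 or 3 or knockdown replicate 2 or 3, with adjusted p of up to 0.12 and 0.0951. PGAM1 lost its call without control replicate 1 or 2 or knockdown replicate 1 or 2 (up to 0.203). These transcripts have processed pseudogenes, 65 named in GENCODE for GAPDH and 13 for PGAM1. The count table held 0 of those of GAPDH and 1 of those of PGAM1, with 6 counts over all libraries. How shared reads were counted is not given in the sources used here, so small differences in these genes are uncertain.

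**Figure D3:**
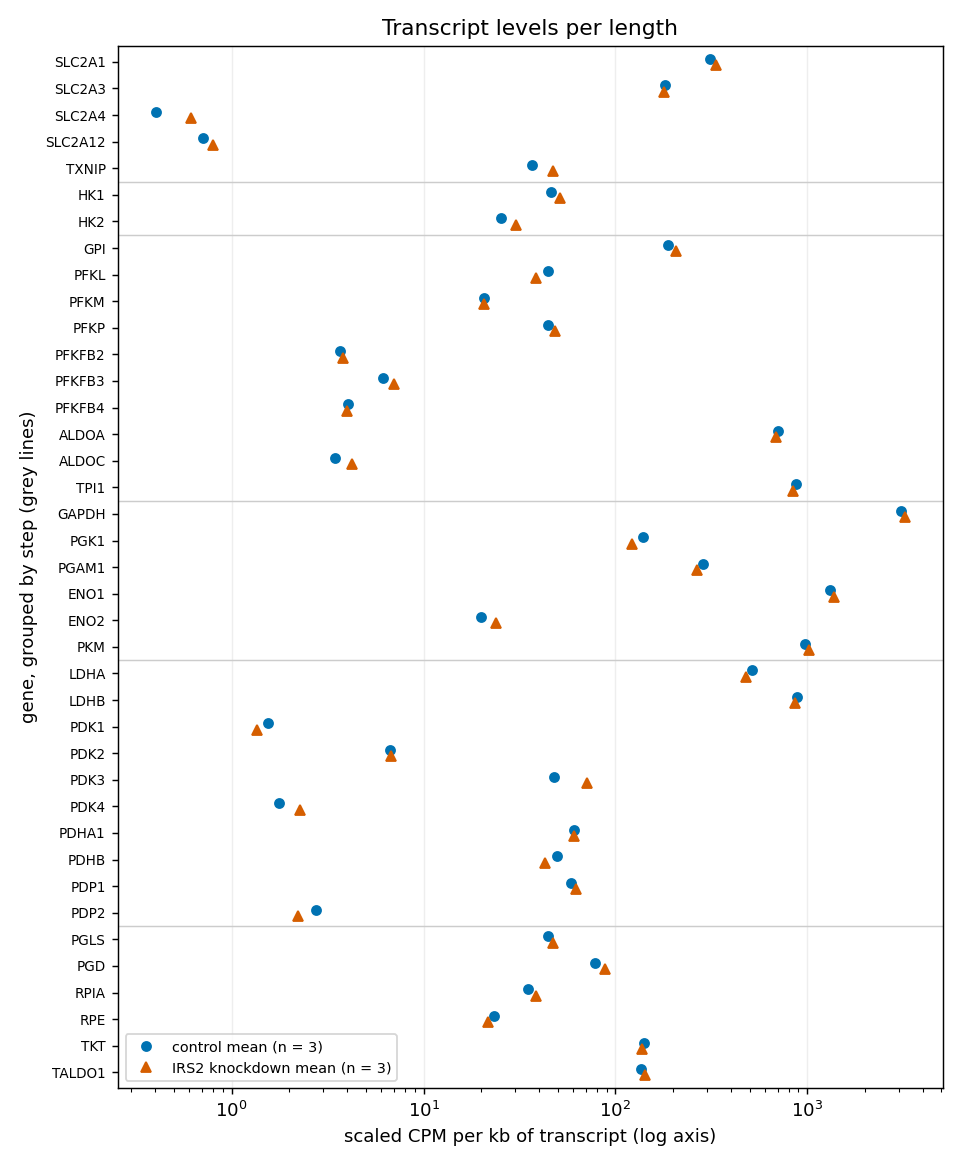
Mean scaled CPM per kb of canonical transcript (x axis, log scale) for each gene (y axis, pathway order) in control (circles) and knockdown (triangles), n = 3 each. GAPDH at 3074, ENO1 at 1306 and PKM at 974 are the highest in control, and the changes between groups are small beside the range between genes.

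At the branch between lactate and mitochondrial oxidation, 3 of 10 genes rose and 4 fell, which is 70% against 38.5% of all tested genes. This step held the largest rise and the largest fall among the 22 genes that passed. Pyruvate dehydrogenase turns pyruvate into acetyl-CoA; its PDK kinases switch it off and its PDP phosphatases switch it on. PDK3 was at 82.6, 80.8 and 87.2 scaled CPM in control and at 126, 118.5 and 128 in knockdown. Every knockdown value was above every control value, by a log2 fold change of 0.57 ± 0.04 (SE; adjusted p 5.66e-09), and PDK3 ranked 130 of all tested genes by p. The PDK3 gene is at 24483361 to 24568583 of chromosome X (GRCh37), with 11 exons.

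The other kinases moved less or not past the threshold. PDK4, which is induced by fasting in many tissues and is repressed by insulin, had a log2 fold change of 0.35 ± 0.12 (SE; adjusted p 0.0301), and PDK1, a known hypoxia target, of -0.18 ± 0.07 (SE; adjusted p 0.0491). PDK4 lost its call in 7 of 17 alternatives, including every fit without 1 library except that without knockdown replicate 3 (adjusted p 0.0516 to 0.107). PDK1 lost its call in 14 of 17, including all 6 fits without 1 library (0.0626 to 0.142). PDK2 was at 21.6 to 22.9 scaled CPM in control and 22.4 to 23.1 in knockdown (adjusted p 0.878), and 38.6% of its exonic bases also lie in exons of SAMD14. PDK3 was the most abundant of the 4 per length, at 47.99 scaled CPM per kb in control, ahead of PDK2 at 6.67.

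Among the parts of the enzyme and its phosphatases, the catalytic subunits differed. PDHB, the beta subunit, was at 75.5, 76.5 and 73.1 scaled CPM in control and at 63.2, 63.7 and 66.5 in knockdown, without overlap (log2 fold change -0.22 ± 0.04 SE; adjusted p 0.000601). PDHA1, the alpha subunit that carries the sites the kinases act on, was at 197 to 209 in control and 203 to 205 in knockdown (adjusted p 0.930), and 19.3% of its exonic bases overlap exons of MAP3K15. PDP2 was at 18.8, 18.4 and 20.3 scaled CPM in control and at 16.95, 15.1 and 14.3 in knockdown, a log2 fold change of -0.32 ± 0.08 (SE; adjusted p 0.00529). PDP1, the more abundant phosphatase per length (58.5 scaled CPM per kb in control against 2.74 for PDP2), had a log2 fold change of 0.10 ± 0.03 (SE; adjusted p 0.0157), so the pair changed in opposite directions. The call of PDP1 was lost without control replicate 1 or knockdown replicate 2 (adjusted p 0.0727 and 0.0858) and with library size alone (0.079), and it was kept in 13 of 17 alternatives. PDHB lies on chromosome 3 (GRCh37, 58413357 to 58419584) and PDP2 on chromosome 16 (66912492 to 66929657).

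LDHA and LDHB encode the subunits of lactate dehydrogenase, of which the A form is known to favour lactate production. LDHA was at 1161, 1155 and 1149 scaled CPM in control and at 1047, 1078 and 1112 in knockdown, all knockdown values below all control values (log2 fold change -0.10 ± 0.03 SE; adjusted p 0.00875). Its call was lost without knockdown replicate 1 (adjusted p 0.0609) and after correction for transcript length and GC content (0.0935). LDHB was at 1138 to 1161 in control and 1088 to 1173 in knockdown, with overlapping groups (adjusted p 0.473). Per kb, LDHB was at 882 scaled CPM in control and LDHA at 515. That order rests on the lengths of the canonical transcripts, 1303 nt for LDHB and 2241 nt for LDHA.

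Of the pentose phosphate genes, PGD was the 1 of 6 that passed (16.7%, against 38.5% of all tested genes). This branch supplies NADPH and ribose, and PGD encodes its second NADPH-producing enzyme. PGD was at 180.4, 178 and 174 scaled CPM in control and at 198, 197 and 202 in knockdown, without overlap (log2 fold change 0.17 ± 0.03 SE; adjusted p 0.000535). PGLS, the lactonase between the oxidative steps, had a log2 fold change of 0.08 ± 0.06 (SE). Of the enzymes that rearrange sugar phosphates, RPIA had 0.13 ± 0.05, RPE -0.10 ± 0.05, TKT -0.03 ± 0.03 and TALDO1 0.07 ± 0.04 (log2 fold change, SE), and none of these passed. Control replicate 1 was the highest control library for RPIA, at 69.5 scaled CPM against 58.9 and 62.6 in the other two, and without it RPIA passed as higher (adjusted p 0.00609). PGLS, RPIA and TALDO1 also passed as higher after the correction for length and GC content (adjusted p 0.0256, 0.00499 and 0.00531). For RPE, 23.8% of exonic bases overlap exons of KANSL1L.

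Shares of isozymes within a family do not depend on how libraries are scaled to each other. In 8 families, 15 shares of counts were compared, and the groups did not overlap for 11 of them. The scaled values of 47.6% of all tested genes did not overlap either, a measure of single genes and not of shares. Within a family a rise of any share lowers the others, so the 15 are not independent. PDK3 rose from 62.2, 61.4 and 63.4% of all PDK counts in control to 71.8, 69.99 and 72.1% in knockdown, a difference of 8.99 points. Counted per kb of transcript, the same share went from 82.8% to 87.3%, a smaller difference of 4.53 points. PFKL made up 42.55, 40.5 and 42.1% of phosphofructokinase counts in control and 36.2, 37.2 and 37.2% in knockdown, while PFKP went from 37.7 ± 1.41% to 41.9 ± 1.34% (mean ± SD, n = 3 each). Per kb, PFKL and PFKP each made up 40.6% of the family in control, and in knockdown PFKL made up 35.7% and PFKP 44.9%.

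Other families shifted by less. HK2 made up 46.2 ± 0.407% of hexokinase counts in control and 48.15 ± 0.48% in knockdown, and SLC2A1 60.0 ± 0.345% and 62.2 ± 0.484% of the counts of SLC2A1, SLC2A3 and SLC2A12 (mean ± SD, n = 3 each). LDHA went from 50.1 ± 0.121% to 48.9 ± 0.236% of lactate dehydrogenase counts, and PFKFB3 from 40.8 ± 1.08% to 43.6 ± 1.05% of the PFKFB counts (mean ± SD, n = 3 each). ENO2 was 1.93% of the counts of ENO1 and ENO2 in control and 2.20% in knockdown, and ALDOC 0.482% and 0.602% of those of ALDOA and ALDOC. ENO3, an enolase gene not among the members, was left out of that share, at 24.9 scaled CPM in control and 23.4 in knockdown. The shares of PFKM, PFKFB2, PFKFB4 and PDK4 overlapped between groups. With 3 libraries against 3, the exact permutation test, two-sided, cannot give a p below 0.1, which is the value of each share without overlap (0.136 after adjustment over the 15), so these shares are descriptions.

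**Figure D4:**
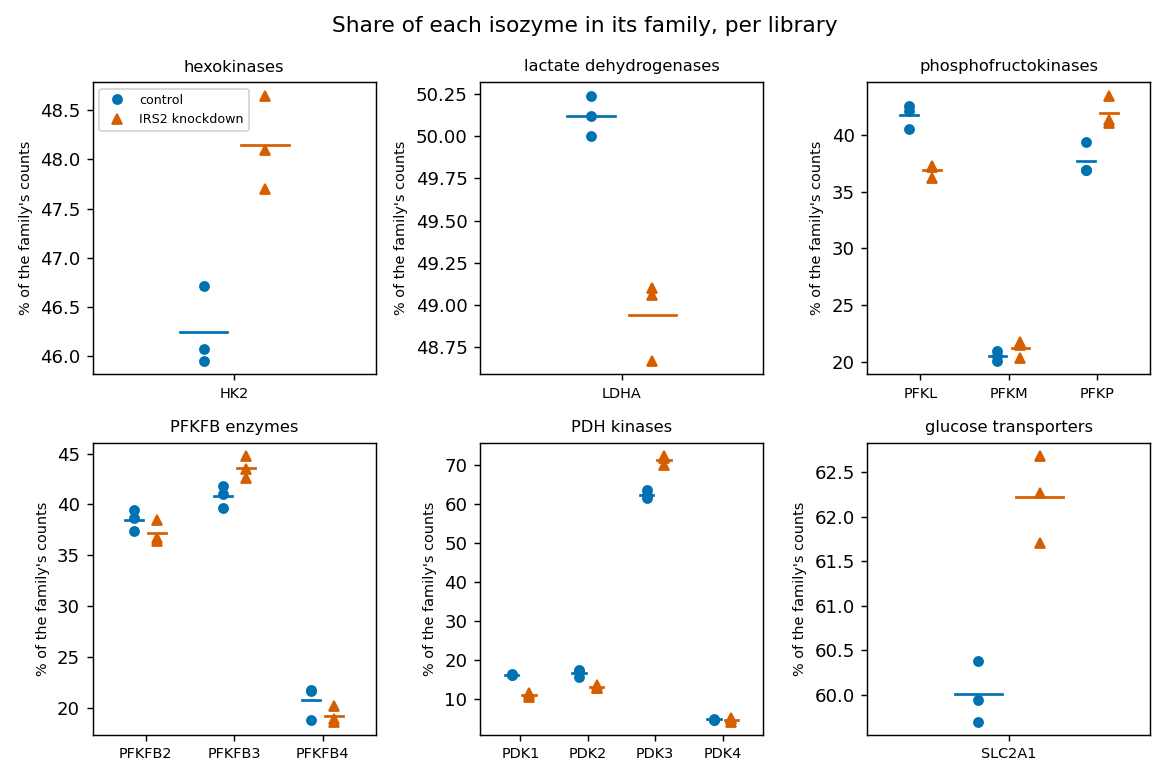
Share of counts that each isozyme takes within its family (y axis, percent, axes not starting at 0) in each library, with circles for control, triangles for knockdown and lines for the group means, n = 3 each. In the panel of PDH kinases, PDK3 sits between 61.4 and 63.4% in control and between 69.99 and 72.1% in knockdown, and in the panel of phosphofructokinases PFKL falls and PFKP rises without overlap.

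Neighbouring pathways were read from lists of genes that are not among the 39. In the glycogen and hexosamine branches, 3 of 9 genes rose and 2 fell (55.6% in all). Of all tested genes 38.5% passed, 19.3% higher and 19.2% lower. GFPT1, the rate-limiting enzyme that diverts fructose phosphate into hexosamines, rose from 96.0 ± 1.33 to 136.9 ± 5.02 scaled CPM (SD, n = 3 each), a log2 fold change of 0.51 ± 0.04 (SE; adjusted p 7.13e-09), close in size to that of PDK3. PGM3, a later enzyme of the same branch, had a log2 fold change of 0.27 ± 0.05 (SE; adjusted p 0.000167). The 3 genes of the serine branch, which leaves glycolysis after the PGK1 step, were all lower, and PHGDH, its first enzyme, had a log2 fold change of -0.17 ± 0.03 (SE; adjusted p 0.000846).

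Among 17 further carriers and side enzymes, 10 passed the filter, 2 rose and 1 fell, and SLC2A6, another sugar transporter gene, had a log2 fold change of 0.36 ± 0.06 (SE; adjusted p 0.000203). The share that passed was 30% of the tested carriers and side enzymes, against 38.5% of all tested genes. Of the 14 genes of the hypoxia list, 5 were higher and 4 lower (64.3% in all). HIF1A, the hypoxia factor itself, rose from 156 ± 1.10 to 197 ± 2.66 scaled CPM (SD, n = 3 each), which is 0.34 ± 0.03 in log2 fold change (SE; adjusted p 1.65e-07). VHL, which marks that factor for destruction, had a log2 fold change of -0.31 ± 0.05 (SE; adjusted p 0.00013). Its target genes went both ways, with NDRG1 at 0.18 ± 0.03 and BNIP3 at -1.28 ± 0.21 (log2 fold change, SE; adjusted p 0.000325 and 6.7e-05), BNIP3 from a low level of 4.92 scaled CPM in control.

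In the MondoA list, 1 of 4 genes passed, MLXIP, which encodes MondoA (log2 fold change 0.16 ± 0.04 SE; adjusted p 0.00159), while ARRDC4, like TXNIP a known target, had a log2 fold change of 0.15 ± 0.10 (SE) and did not pass. Pyruvate entry had 1 of 6 genes higher, gluconeogenesis 1 of the 2 tested, and the other pentose phosphate genes 1 higher and 2 lower of 4 tested. The shares that passed were 25% for the MondoA list, 16.7% for pyruvate entry, 50% for gluconeogenesis and 75% for the other pentose phosphate genes. Of all tested genes, 38.5% passed. Of the 20 genes that the naming rule selected from these lists, 9 kept their call in every alternative that gave a value: SLC2A6, GFPT1, PGM3, HIF1A, BNIP3, VHL, NDRG1, MLXIP and PHGDH. The other 11 were PCK2, SLC2A10, TIGAR, UGP2, PGM1, H6PD, PRPS1, PRPS2, DLAT, PSAT1 and PSPH. Each of these lost its call when some single libraries were left out, with adjusted p of up to 0.208, that of TIGAR.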

How the data were processed

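The authors deposited whole-number read counts per gene symbol and, without a stated unit, a normalized signal that equals the counts divided by 1 constant per library (0.847 to 1.25). The submitters' processing notes name STAR 2.6.1a, Salmon, DESeq2 and the build hg19, with no role or order; the annotation, strand setting and handling of shared reads are not given in the sources used here. The library kit is named in the labels without a strand setting, so overlapping genes cannot be told apart. Counts were tested with edgeR 4.0.16 in R 4.3.3 (TMM, filterByExpr, quasi-likelihood F-test, group as the only term, Benjamini-Hochberg over 13832 genes, threshold 0.05). SE was taken from the F statistic, whose square root divides the size of the log2 fold change. Lengths, positions and overlaps come from GENCODE version 44 on GRCh37, 1 canonical transcript per gene. The lengths of the transcripts expressed here are not known, so levels and shares per kb depend on that choice. Genes were named by rule: every member by step, with all library values for those past the threshold (the 4 with the smallest p where a step had over 4), and up to 4 genes past the threshold per neighbouring list. Marker lists checked the labelled cell type.

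The members and lists were chosen with earlier results of these data known. The 17 alternatives were other scalings, filters and thresholds, DESeq2 1.42.0, limma 3.58.1 (voom, and on log2 of the deposited signal plus 1), a replicate block, leaving out each library, and, added after seeing the data, a correction for length and GC content (95.8% of tested genes had both). Isozyme shares were also computed per kb. The fits were tested on simulated counts, with larger changes than those of most members and with fewer changed genes. The simulation therefore does not cover changes as small as most reported here. Replicate pairs differed by more than counting error (chi-square per degree of freedom 1.41 to 2.86), and 0 columns were left unused.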

Additional observations from a re-analysis of the deposited data

How the results depend on the processing

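Of the 22 calls, 12 held in all 17 alternatives, 15 under the 3 other scalings, and 12 in all 6 fits without 1 library. With library size alone 9 members were higher and 8 lower, and median log2 fold changes were 0.042 over all members, 0.176 for hexokinases, 0.041 for the lower part and -0.043 for lactate and pyruvate fate. At an adjusted p under 0.01, 13 members passed and 8 were higher. The hexokinase median was 0.185 with upper-quartile factors and 0.193 with a mean of at least 50 counts. After the length and GC correction 18 members were higher and 4 lower, and medians were 0.101 over all members, 0.223 for hexokinases, 0.065 for the upper part, 0.034 for lactate and pyruvate fate and 0.131 for pentose phosphate, while the median of all genes moved by 0.04. The share of higher calls over all genes was 50.2%, 40.8% with library size alone and 62.7% after that correction. Without 1 library, 14 to 19 members passed (14 without knockdown replicate 2), 9 to 13 higher and 4 to 7 lower (4 without knockdown replicate 1), and the median over members ran from 0.041 to 0.085. The cause of these changes was not tested.

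The log2 fold change of IRS2 ran from -1.42 to -1.35. The PDK4 share difference ran from -0.23 to 0.175 points without 1 library. Genes that had not passed changed sign near 0. PFKM was at -0.015 with upper-quartile factors, -0.025 with library size alone, -0.0077 under the 50-count filter and -0.017 to 0.037 without 1 library. PDHA1 was at -0.016, -0.026 and -0.0082 in the same 3 settings and -0.017 to 0.030 without 1 library. PDK2 was at -0.0052 with upper-quartile factors, -0.015 with library size alone and -0.0053 to 0.031 without 1 library. PFKFB4 was at 0.000115 in limma on the deposited values and -0.11 to 0.042 without 1 library. After the length and GC correction SLC2A3 was at 0.014, ALDOA at 0.0011 and LDHB at 0.042.

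The replicate numbers of the titles are shared by both groups, but same-numbered libraries did not deviate together (correlations 0.03, 0.01 and -0.10). With the replicate block, 16 members passed (11 higher, 5 lower) and 4862 of all genes.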
